A study of Mus musculus with 49 samples.

Results

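The complement members described here are C1qa, C1qb and C1qc, the chains of C1q that open the classical pathway, C4b of the same pathway, the shared component C3, Cfb and Cfd of the alternative pathway, and C3ar1 and C5ar1, the receptors of the anaphylatoxins C3a and C5a. They were chosen as named genes, and each was read from a probe set annotated to its symbol alone, the one of highest mean over the 49 arrays where there were several. By that rule 6 of the 9 had a probe set of their own, among 8251 genes: C1qa (98562_at), C1qb (96020_at), C1qc (92223_at), C3ar1 (103707_at), C5ar1 (101728_at) and Cfb (161365_r_at). Both probe sets of C4b are annotated to C4a as well and were not used, and C3 and Cfd were not analysed here. The classical pathway was thus read from the C1q chains and the alternative pathway from Cfb.

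Complement is a cascade of plasma proteases that coats antibody complexes and cells and releases chemotactic peptides. C1q binds clustered antibody and starts the classical pathway, while factor B is the protease of the alternative pathway's C3 convertase. Most components are secreted by the liver, but C1q is made mainly by macrophages and dendritic cells, and the anaphylatoxin receptors sit on myeloid cells. In arthritis induced by K/BxN serum, whose autoantibodies form immune complexes in joints, the alternative pathway and C5aR1 are known to be required.

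The arrays came from male B6 mice of 6 weeks in a course of K/BxN serum. The day was counted from the first injection, and no other allele or agent was named. Day 0, the reference for ankle and blood, was read as the time before serum. Whole ankles gave 4 arrays for day 0, 2 for day 1, 3 for day 3, 4 for day 7 and 3 for each of days 12 and 18. Synovial fluid cells gave 3 arrays for each of days 3, 12 and 18 and 4 for day 7, with no day 0. Blood leukocytes, freed of red cells by lysis, were taken on days 0, 1, 3, 7 and 12 (3 each) and day 18 (2). The ankle descriptions name SDS and urea extraction with amplification in 2 rounds, although the same samples' extraction field names Trizol. Among the fluid arrays, replicate 1 of days 3 and 7 came from a wash of the joint, and 2 others (day 7 replicate 4, day 18 replicate 3) carry a description unlike the rest, as does blood day 3 replicate 3. Ankle day 0 replicate 2 has a sample name in its description that differs from its title. Tissue and preparation cannot be told apart. The blood labels alone speak of biological replicates, so p-values elsewhere measure the spread between samples that may be technical.

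Values are log2 intensities. The 95th percentile of 34 negative control probe sets, 6.85, served as the limit below which a probe set counted as not above background, and the number of arrays limits the precision. Array medians were alike, at 57.7 to 64.1 on the linear scale, and replicates correlated at 0.941 to 0.995. Markers told ankle from blood. Summed fibroblast markers lay at 18629 to 30469 in ankle against 1188 to 1445 in blood. Summed B cell markers lay at 5224 to 8103 in blood against 394 to 653 in ankle. In fluid the fibroblast sum was 2497 to 19221, reaching into the ankle range. Summed neutrophil markers lay at 11933 to 22245 in fluid, above the 1029 to 5368 of ankle and overlapping the 5426 to 16514 of blood. In 4 ankle arrays, replicate 1 of days 0, 1, 7 and 12, the hepatocyte transcript Alb read 6.39 to 10.65, against 4.36 to 5.19 on the other 15. Summed over 17 hepatocyte markers, these arrays overlapped the rest, at 1570 to 10997 against 771 to 2081. Day 1 replicate 1, at 1570, lay below replicate 2 of its day, at 2031. In bulk samples such as these, fewer cells of a type and less RNA per cell cannot be told apart.

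Promoter windows of RefSeq (GRCm38.p6), from 250 bases before to 50 after the annotated start, are shown for the members whose levels separated the tissues, so that the neighbouring C1q genes can be set beside C3ar1. The table held windows for C1qb, C1qc, C3ar1 and C5ar1. C1qb lies at chr4:136886151-136886450, C1qc at chr4:136892865-136893164 and C3ar1 at chr6:122856108-122856407, each on the minus strand. In RefSeq's order of protein-coding genes C1qb, C1qc and C1qa follow one another on chromosome 4. Capitals mark matches, on either strand, to 4 sets of letters: GAGGAA, a core bound by PU.1 and other ETS factors, TGCTGA, a MAF half-site, TGANTCA, the AP-1 site, and TATAAA, the TATA box. None of these overlaps another in the windows shown.
C1qb: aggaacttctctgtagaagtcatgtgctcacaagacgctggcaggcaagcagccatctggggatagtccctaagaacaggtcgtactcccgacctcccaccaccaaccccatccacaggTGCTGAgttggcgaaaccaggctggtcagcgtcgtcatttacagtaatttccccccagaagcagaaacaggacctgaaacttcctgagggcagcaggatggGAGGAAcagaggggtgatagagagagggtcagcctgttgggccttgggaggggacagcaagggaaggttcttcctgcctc
C1qc: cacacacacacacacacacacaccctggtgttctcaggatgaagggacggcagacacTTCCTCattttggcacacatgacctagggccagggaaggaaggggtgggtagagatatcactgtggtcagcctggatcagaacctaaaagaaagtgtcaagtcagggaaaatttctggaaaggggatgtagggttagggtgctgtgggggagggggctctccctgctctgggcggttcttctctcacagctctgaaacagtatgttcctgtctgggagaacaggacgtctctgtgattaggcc
C3ar1: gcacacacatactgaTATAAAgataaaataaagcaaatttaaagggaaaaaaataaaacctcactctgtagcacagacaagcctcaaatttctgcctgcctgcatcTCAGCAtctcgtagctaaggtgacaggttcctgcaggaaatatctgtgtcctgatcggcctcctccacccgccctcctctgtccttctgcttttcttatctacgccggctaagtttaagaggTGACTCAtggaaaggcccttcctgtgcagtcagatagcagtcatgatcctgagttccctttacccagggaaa

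The C1qb window held 1 TGCTGA, 131 bases before the start, and 1 GAGGAA, 30 bases before it. The C1qc window held GAGGAA once, on the opposite strand, where it reads TTCCTC, 193 bases before the start. The C3ar1 window held TATAAA 235 bases before the start, TGCTGA on the opposite strand (printed as TCAGCA) 144 bases before it, and an AP-1 match 22 bases before it. Of 32851 windows of the same length, 28.3% held GAGGAA, 19.5% TGCTGA, 7.81% TGANTCA and 13.6% TATAAA. These are matches of letters, and the arrays measured no binding.

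**Figure D1:**
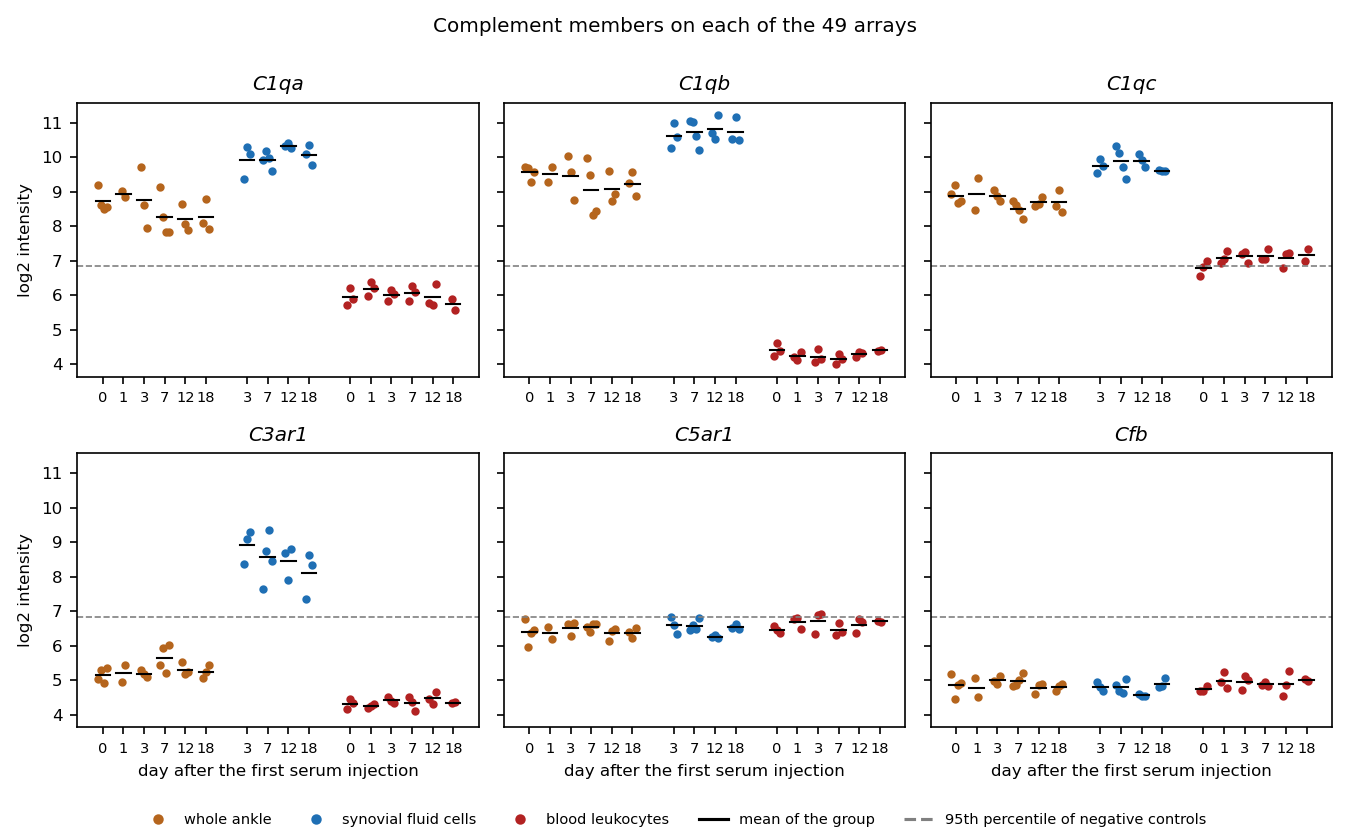
Log2 intensity of the 6 members on each of the 49 arrays (points), by tissue and day after the first serum injection, with the mean of each group (black) and the limit of 6.85 (dashed). The C1q chains were high in ankle and higher in fluid, C3ar1 was above the limit in fluid only, and all group means of C5ar1 and Cfb lay below it.

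The 4 members with group means above background had their highest in synovial fluid cells, and C1qc was above background in blood as well. C1qa, C1qb, C1qc and C3ar1 were all higher in synovial fluid cells than in blood leukocytes, averaged over days 3, 7, 12 and 18, and these 4 of 6 members stood against a background of 24.8% of genes called higher and 58.8% called in either direction (limma, adjusted p under 0.05). For C1qb the lowest, median and highest values were 10.21, 10.61 and 11.22 on the 13 fluid arrays and 4.01, 4.29 and 4.61 on the 17 blood arrays of all days. All blood values lay below the limit and all fluid values above it. The difference was 6.46 ± 0.11 (SE), with limma's adjusted p = 1.8e-25, and 3.39 with all probe sets of the gene averaged. Since blood lay below the limit, the fold is a bound, at least 14.7-fold, as is every "at least" below, computed from the brighter mean against 6.85.

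C1qa read 9.37, 10.10 and 10.42 (lowest, median, highest) in fluid and 5.58, 5.99 and 6.39 in blood, a difference of 4.12 ± 0.11, at least 9.31-fold. C1qc read 9.37, 9.71 and 10.33 in fluid and 6.57, 7.06 and 7.34 in blood. It was the one chain above the limit in blood, on 14 of 17 arrays, so its 2.66 ± 0.10 could be given as 6.32-fold. The arrays of fluid and blood overlapped for none of the chains. The share of all genes without overlap was not counted, for this or any later comparison. Adjusted p-values from limma were 1.5e-21 for C1qa and 3.7e-18 for C1qc.

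C3ar1, the receptor of C3a, was above the limit on all 13 fluid arrays and on no array of ankle or blood. In fluid the day 3 arrays read 8.36, 9.11 and 9.29 and the day 7 arrays 7.66, 8.75, 9.37 and 8.46. The day 12 arrays read 8.68, 7.91 and 8.81 and those of day 18 read 7.37, 8.64 and 8.35. In blood it stayed between 4.11 and 4.65. Every fluid array was thus above every blood array. The difference was 4.12 ± 0.16, at least 3.18-fold (limma, adjusted p = 5.85e-18).

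C5ar1, the chemotactic receptor of C5a, gave no such separation: it read 6.21 to 6.85 in fluid, 6.32 to 6.94 in blood and 5.97 to 6.78 in ankle. Only 2 of 49 arrays, both of blood on day 3, passed the limit, and none of the 16 group means did. The fluid minus blood difference was -0.13 ± 0.08 (95% interval -0.29 to 0.03, limma's adjusted p = 0.16), and passed the threshold without blood day 3 replicate 1 (-0.18, adjusted p = 0.040) and with array weights (-0.20, adjusted p = 0.0024). Cfb read 4.47 to 5.29 over all 49 arrays and was above the limit on none. Its fluid minus blood difference, -0.17 ± 0.08 (interval -0.33 to -0.01, adjusted p = 0.065), passed without any 1 of fluid day 3 replicate 1, fluid day 7 replicate 4, fluid day 18 replicate 3, blood day 3 replicate 1 or blood day 12 replicate 1 (-0.18 to -0.21, lowest adjusted p = 0.013), without the 2 fluid arrays of other description (-0.21, adjusted p = 0.024) and with array weights (-0.22, adjusted p = 0.0011). Both genes are read here below background, so no fold is given and the levels say nothing about absence.

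Fluid cells also exceeded whole ankle over the same days: again 4 of 6 members, C1qa, C1qb, C1qc and C3ar1, were higher, where 18.7% of genes were called higher and 38.1% in either direction. C3ar1, below the limit in ankle, differed by 3.16 ± 0.16 (at least 3.18-fold, limma's adjusted p = 2.6e-15). C1qa was 1.69 ± 0.17 higher, or 3.23-fold, C1qb 1.51 ± 0.18, or 2.85-fold, and C1qc 2.14-fold (95% interval of the log2 difference 0.87 to 1.33). C1qa alone of the 4 had overlapping arrays, since ankle day 3 replicate 1 at 9.71 reached above the lowest fluid arrays. C5ar1 (0.05, interval -0.12 to 0.21) and Cfb (-0.12, interval -0.28 to 0.03) missed the threshold, which Cfb passed with array weights (-0.14, limma's adjusted p = 0.027).

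Macrophage markers were mostly higher in fluid too, though not alone. Summed fibroblast markers, given above, were also higher in fluid than in blood and reached into the ankle range. Of 12 macrophage markers measured, 11 were higher in fluid than in blood and 1, Marco, was lower, with a median difference of 1.97. Against ankle 10 of 12 were higher, by a median of 1.07, and none was lower. The summed intensity of the macrophage markers was 5450 to 11445 in fluid, 2484 to 4042 in ankle and 1278 to 3772 in blood. Ankle and blood thus overlapped in this sum. Neutrophil markers were higher in fluid too, 6 of 11 against blood and 7 of 11 against ankle, with 2, Camp and Ngp, lower in both. The median over the 6 members was 3.39 for fluid minus blood, and over all genes it was -0.08 for fluid minus blood and -0.04 for fluid minus ankle. The part of cell makeup in the members' differences was not tested.

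**Figure D2:**
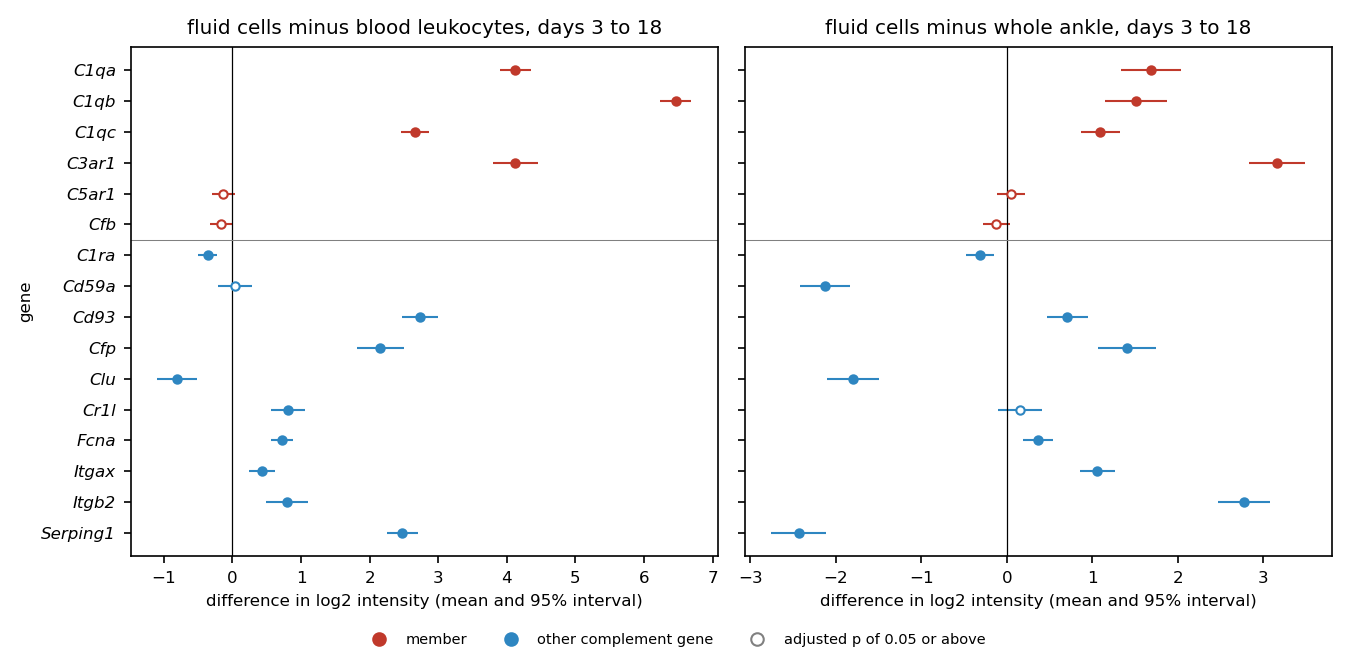
Difference in log2 intensity (point, with 95% interval) of synovial fluid cells from blood leukocytes and from whole ankle over days 3, 7, 12 and 18, for the 6 members (red) and the 10 other complement genes with a group mean above the limit (blue). Filled points passed limma's adjusted p of 0.05: C1qa, C1qb, C1qc and C3ar1 lie right of 0 in both panels, while Serping1 lies right of 0 against blood and left of it against ankle.

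The C1q chains were already high in ankle before arthritis. On day 0 C1qb read 9.72, 9.70, 9.30 and 9.57 on the 4 ankle arrays and 4.24, 4.61 and 4.39 on the 3 blood arrays. C1qa read 9.21, 8.63, 8.51 and 8.56 in ankle and 5.72, 6.21 and 5.91 in blood. C1qc read 8.94, 9.19, 8.68 and 8.74 in ankle and 6.57, 6.81 and 6.99 in blood. For each chain all ankle arrays were above all blood arrays. The differences were 5.16 ± 0.29 for C1qb, at least 6.60-fold, 2.78 ± 0.31 for C1qa, at least 3.67-fold, and 2.10 ± 0.19 for C1qc, at least 4.11-fold, with limma's adjusted p no higher than 9.8e-09.

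C3ar1 also passed, at 5.03, 5.31, 4.91 and 5.35 in ankle against 4.16, 4.45 and 4.34 in blood, but both groups were below the limit and no fold is given (0.84 ± 0.16, limma's adjusted p = 7.3e-05). In all, 4 of 6 members were higher in ankle, against 22.4% of genes called higher and 42.2% in either direction. C5ar1 (-0.07, interval -0.40 to 0.27) and Cfb (0.12, interval -0.21 to 0.45) missed the threshold. Of the macrophage markers 6 of 12 were higher in ankle and none lower, and 7 of 11 neutrophil markers were lower. Without the 4 arrays with raised Alb, the C1qa difference was 2.62 and that of C1qb 5.11.

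Over the course of arthritis in the ankle, no member passed the test on any day, while the genes called on the whole array went from 0% on day 1 and 0.23% on day 3 to 6.73% on day 7, 3.24% on day 12 and 2.01% on day 18. At an unadjusted p under 0.05 limma counted 1 member on day 7, C3ar1, and 0 on each other day. Over all genes that count was 150 of 8251 on day 1 and is not given here for later days. The shares above are at the adjusted threshold. On day 7 C1qb read 9.98, 9.48, 8.32 and 8.45, and C1qa 9.14, 8.28, 7.83 and 7.85. Replicates 3 and 4 lay below every day 0 array for both genes, and replicate 1 lay within or above the day 0 range. C1qc, at 8.74, 8.63, 8.46 and 8.22, overlapped day 0 as well.

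The day 7 minus day 0 differences were -0.45 ± 0.34 for C1qa (95% interval -1.17 to 0.26, limma's adjusted p = 0.56), -0.51 ± 0.33 for C1qb (-1.22 to 0.19, adjusted p = 0.48) and -0.38 ± 0.20 for C1qc (-0.79 to 0.04, adjusted p = 0.33). The intervals allow falls of more than 1 log2 unit in C1qa and C1qb and leave room for no fall. On day 12 C1qa stood at 8.65, 8.07 and 7.90 and C1qb at 9.60, 8.73 and 8.95. On day 18 C1qa stood at 8.11, 8.79 and 7.93 and C1qb at 9.27, 9.57 and 8.89. Both genes still overlapped day 0 on both days, with C1qa at -0.52 (interval -1.29 to 0.25) and -0.45 (-1.22 to 0.32) against it, and C1qb at -0.48 (-1.24 to 0.28) and -0.33 (-1.09 to 0.43). C1qc stood at -0.19 on each of those days, with intervals of -0.64 to 0.26 and -0.64 to 0.25.

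C3ar1 in ankle read 5.45, 5.95, 5.22 and 6.03 on day 7, of which 3 were above all 4 day 0 arrays, yet all lay below the limit. The difference was 0.51 ± 0.17 (interval 0.15 to 0.88, limma's adjusted p = 0.094), and passed without ankle day 7 replicate 3 (0.66, adjusted p = 0.033). C5ar1 (0.15, interval -0.18 to 0.48) and Cfb (0.14, interval -0.17 to 0.45) missed the threshold on day 7. On the same day the median change of the macrophage markers was 0.23, with Msr1 and Fcgr1 higher and Folr2 lower, and neutrophil markers had a median of 0.63, with 4 of 11 higher. The median change of the 6 members was -0.12, and that of all genes 0.002.

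The 4 arrays with raised Alb sat high for C1qa: each had the highest C1qa of its day, at 8.65 to 9.21, although the other 15 arrays spanned 7.83 to 9.71. For C1qb they read 9.28 to 9.98 against 8.32 to 10.04, and for C1qc 8.47 to 8.94 against 8.22 to 9.40. All 4 were replicate 1. Replicate 1 of day 3, with Alb at 5.02, also had the highest C1qa of its day, at 9.71. On day 18 replicate 2 had it, at 8.79 against 8.11 in replicate 1. The part of raised Alb or of the replicate number in the C1q values was not tested. Without the 4 arrays the day 7 differences were -0.58 for C1qa (limma's adjusted p = 0.35), -0.77 for C1qb (0.18) and -0.43 for C1qc (0.22). These still missed the threshold.

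Within the ankle C1qb varied with C1qa and with C1qc from array to array, while C1qa with C1qc missed the threshold. After the mean of each day was taken off, C1qa and C1qb correlated across the 19 arrays at r = 0.858 and rho = 0.875 (permutation test, adjusted p = 0.0052 and 0.0057 over 9 relations). Without the 2 arrays farthest from the median of C1qa, r was 0.788, and without the arrays with raised Alb it was 0.833 over 15. C1qb and C1qc gave r = 0.591 and rho = 0.653 (permutation test, adjusted p = 0.021 for both, r = 0.610 without the 2 farthest, 0.717 without the arrays with raised Alb). C1qa and C1qc gave r = 0.419 and rho = 0.537 (permutation test, adjusted p = 0.099 and 0.064, r = 0.315 without the 2 farthest). Without the arrays with raised Alb this r was 0.648. In fluid, over 13 arrays, none of 6 relations passed: r lay at 0.686, 0.548 and 0.569 among the C1q chains, and at 0.329, 0.277 and -0.225 between C3ar1 and C1qa, C1qb and C1qc (permutation tests, lowest adjusted p = 0.094). All these permutations took the arrays of a day as interchangeable. If a replicate number marks a shared source, which was not tested, the p-values could be too small.

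**Figure D3:**
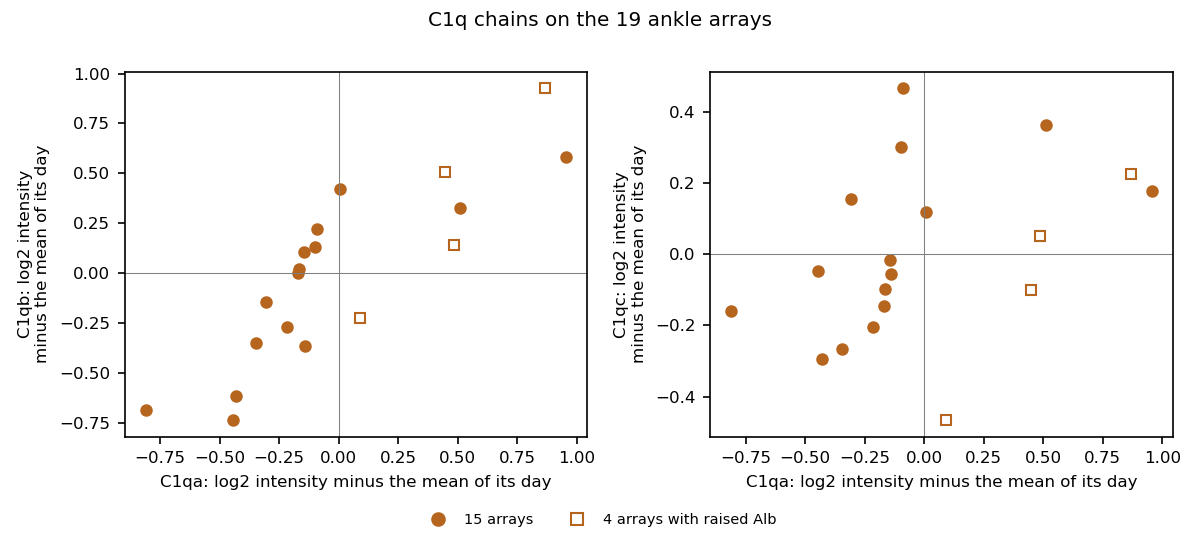
Log2 intensity of C1qb (left) and C1qc (right) against C1qa on the 19 ankle arrays, each as the deviation from the mean of its day. Squares are the 4 arrays with raised Alb, all right of 0 on the C1qa axis. Over all 19 arrays r was 0.858 for C1qa and C1qb and 0.419 for C1qa and C1qc, and over the 15 circles 0.833 and 0.648.

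In fluid no member passed against day 3, the first day with fluid, where 2.56% of genes were called on day 7, 2.7% on day 12 and 3.19% on day 18. At an unadjusted p under 0.05 limma counted 1 member on day 12, C5ar1 at -0.34 below background, and 0 on days 7 and 18. The shares of all genes above are at the adjusted threshold, and none is given at the unadjusted p. For C1qb the day 3 arrays read 10.27, 11.01 and 10.60, and the day 7 arrays 11.06, 11.02, 10.61 and 10.21. Those of day 12 read 10.70, 10.54 and 11.22, and those of day 18 read 10.52, 11.16 and 10.51. These overlapped on all days, and the day 18 difference was 0.10 (interval -0.53 to 0.73). C1qa was 0.42 higher on day 12 (interval -0.12 to 0.96) and C1qc 0.15 higher (interval -0.37 to 0.66). C3ar1 had the largest drift in fluid, its mean 0.80 ± 0.41 lower on day 18 than on day 3 (interval -1.68 to 0.08, limma's adjusted p = 0.39), with overlapping arrays.

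Fibroblast markers did shift in fluid over the same days: their sum lay between 2497 and 4630 on day 3 and between 9763 and 18178 on day 7. Of 13 markers 10 were higher on day 7, 9 on day 12 and 8 on day 18. Summed macrophage markers overlapped between day 3, at 6233 to 11445, and day 18, at 7570 to 9404.

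Blood showed no call in any member or gene on any day after day 0 (0% of genes on days 1, 3, 7, 12 and 18). At an unadjusted p under 0.05 limma counted 1 member on day 3, C1qc, and 2 on day 7, C1qc and C1qb, and 0 on days 1, 12 and 18. C1qc read 7.06, 7.06 and 7.34 on day 7, all above the 3 day 0 arrays, at 0.36 ± 0.16 (interval 0.01 to 0.71, adjusted p = 0.999). C1qb was 0.26 lower on day 7 (interval -0.51 to -0.01), below background throughout. Over all genes the counts at an unadjusted p under 0.05 were 589, 1702, 168, 513 and 1693 for days 1, 3, 7, 12 and 18.

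The change in ankle was also set against the change in blood on days 3, 7, 12 and 18. No member passed, where 0.133%, 2.28%, 1.91% and 1.35% of genes were called. At an unadjusted p under 0.05 limma counted 2 members on day 7, C1qc at -0.74 ± 0.27 (interval -1.28 to -0.19, adjusted p = 0.20) and C3ar1 at 0.49 ± 0.23 (interval 0.03 to 0.95, adjusted p = 0.42), and 0 on the other days. These counts have no share of all genes at the same unadjusted p beside them. C1qa and C1qb stood at -0.58 (interval -1.46 to 0.31) and -0.25 (interval -1.08 to 0.58) on day 7. These values share the day 0 arrays of the comparisons above.

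**Figure D4:**
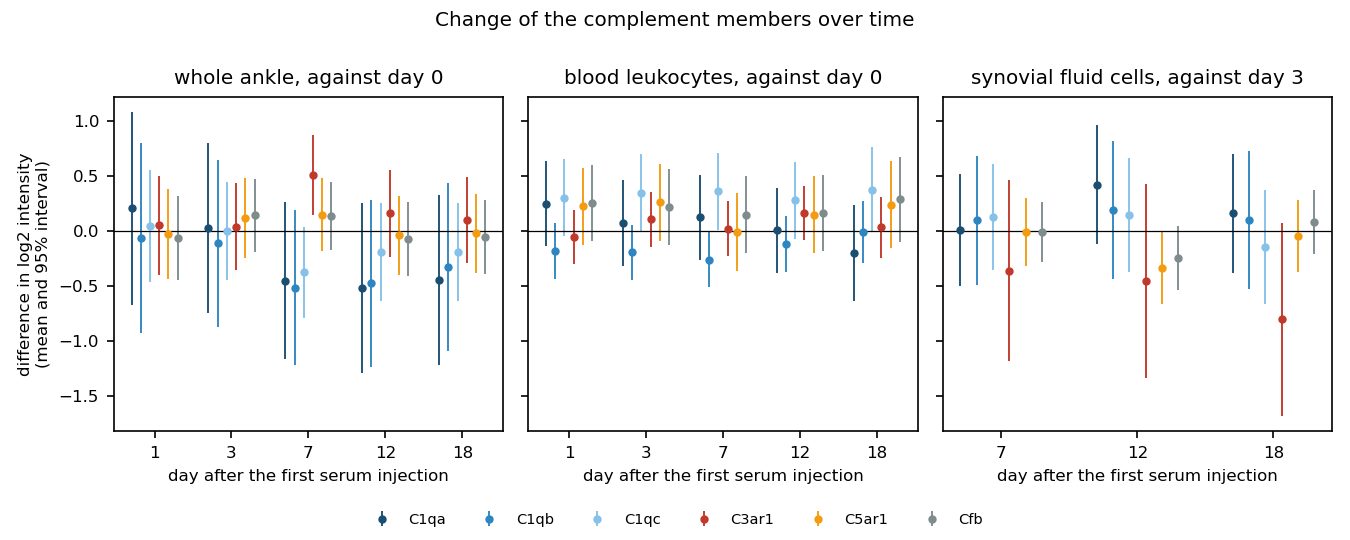
Difference in log2 intensity from day 0 (ankle, blood) or day 3 (fluid) for the 6 members, with limma's 95% interval. None passed an adjusted p of 0.05. Before adjustment the interval of C3ar1 in ankle on day 7, 0.15 to 0.88, excludes 0. So do those of C1qc in blood on days 3 and 7, C1qb in blood on day 7 and C5ar1 in fluid on day 12.

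Of 48 other complement genes listed, 30 had a probe set of their own and 10 of these a group mean above the limit. In ankle 3 of 30 passed on day 7, 2 on day 12 and 3 on day 18, where 6.73%, 3.24% and 2.01% of all genes passed. On days 1 and 3 it was 0 of 30, where limma counted 0 and 4 at an unadjusted p under 0.05. For day 3 the share of all genes at that p is not given here. In blood 0 of 30 passed on any day, with 1, 7, 0, 1 and 7 at an unadjusted p under 0.05. Cd93, a myeloid and endothelial surface lectin once described as a C1q receptor, rose. The day 0 arrays read 8.49, 9.15, 8.55 and 8.61, and the day 7 arrays 9.88, 9.54, 9.49 and 9.27. Those of day 12 read 9.73, 9.64 and 9.79, and those of day 18 read 9.77, 9.73 and 9.53. Every array from day 7 on was above every day 0 array. The differences were 0.84 ± 0.16 (1.79-fold), 1.02 ± 0.17 (2.03-fold) and 0.98 ± 0.17 (1.97-fold), with limma's adjusted p = 0.0024, 0.0015 and 0.0035.

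Fcna, which encodes the lectin pathway recognition molecule ficolin A, fell in ankle around the limit: it read 7.03, 6.79, 6.77 and 6.71 on day 0 and 6.17, 5.95, 6.07 and 5.79 on day 7, with no overlap. The difference was -0.83 ± 0.15 (limma's adjusted p = 0.0020), followed by -0.72 on day 12 (0.018) and -0.79 on day 18 (0.014). The day 12 call was lost without ankle day 0 replicate 1, day 12 replicate 2 or day 12 replicate 3 (adjusted p = 0.053, 0.061 and 0.091), without the 4 arrays with raised Alb (0.051) and with a beta-actin covariate for RNA length (0.14). The day 18 call was lost without day 18 replicate 2 or 3 (0.071 and 0.14).

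Serping1, the C1 inhibitor, read 11.99, 11.93, 11.85 and 11.70 in ankle on day 0 and 11.12, 11.37, 10.06 and 10.16 on day 7, with no overlap. It fell by 1.19 on the log2 scale, or 2.28-fold (SE 0.30, limma's adjusted p = 0.021). The adjusted p rose to 0.051 when day 0 replicate 3 was left out, to 0.084 without replicate 3 of day 7, to 0.076 without its replicate 4, and to 0.077 with the beta-actin covariate, so each of these ended the call. Clu, a fluid-phase inhibitor of the terminal complex, fell on day 18, by 1.37 ± 0.32, or 2.58-fold (adjusted p = 0.029). This was lost without any 1 of day 0 replicates 2 and 4 and day 18 replicates 1 and 3 (adjusted p = 0.057, 0.10, 0.13 and 0.20) and with the beta-actin covariate (0.11).

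In fluid 0 of 30 other complement genes passed on day 7 (3 at limma's unadjusted p under 0.05), 1 on day 12 and 3 on day 18. The shares of all genes were 2.56%, 2.7% and 3.19% at the adjusted threshold, and none is given at the unadjusted p. Serping1 rose in fluid. The day 3 arrays read 8.14, 7.74 and 7.87. Those of day 12 read 8.70, 9.15 and 9.01 and those of day 18 read 9.36, 9.25 and 9.48, all above day 3. It rose by 1.45 ± 0.25 by day 18, or 2.72-fold (limma's adjusted p = 0.0037). The rise of 1.04 on day 12 (adjusted p = 0.040) was lost when any 1 of the 6 arrays compared was left out (adjusted p of 0.052 to 0.18), under renewed quantile normalization (0.10) and without the 2 fluid arrays of other description (0.080). Summed fibroblast markers, which rose over the same days, are given above, and their part in the Serping1 values was not tested.

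Cfp, properdin, the stabiliser of the alternative convertase, read 7.69, 7.22 and 7.61 in fluid on day 3 and 5.53, 5.83 and 6.26 on day 18. It was at least 1.58-fold lower on day 18, with a difference of -1.63 ± 0.37 (limma's adjusted p = 0.021). The call was lost without day 3 replicate 1 or 3 or day 18 replicate 1 or 2 (adjusted p of 0.063 to 0.13). Cd55, decay-accelerating factor, rose below the limit, by 1.17 ± 0.27 (adjusted p = 0.029), and lost the call without day 3 replicate 2 or 3 or day 18 replicate 1 or 2 (0.065 to 0.17).

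**Figure D5:**
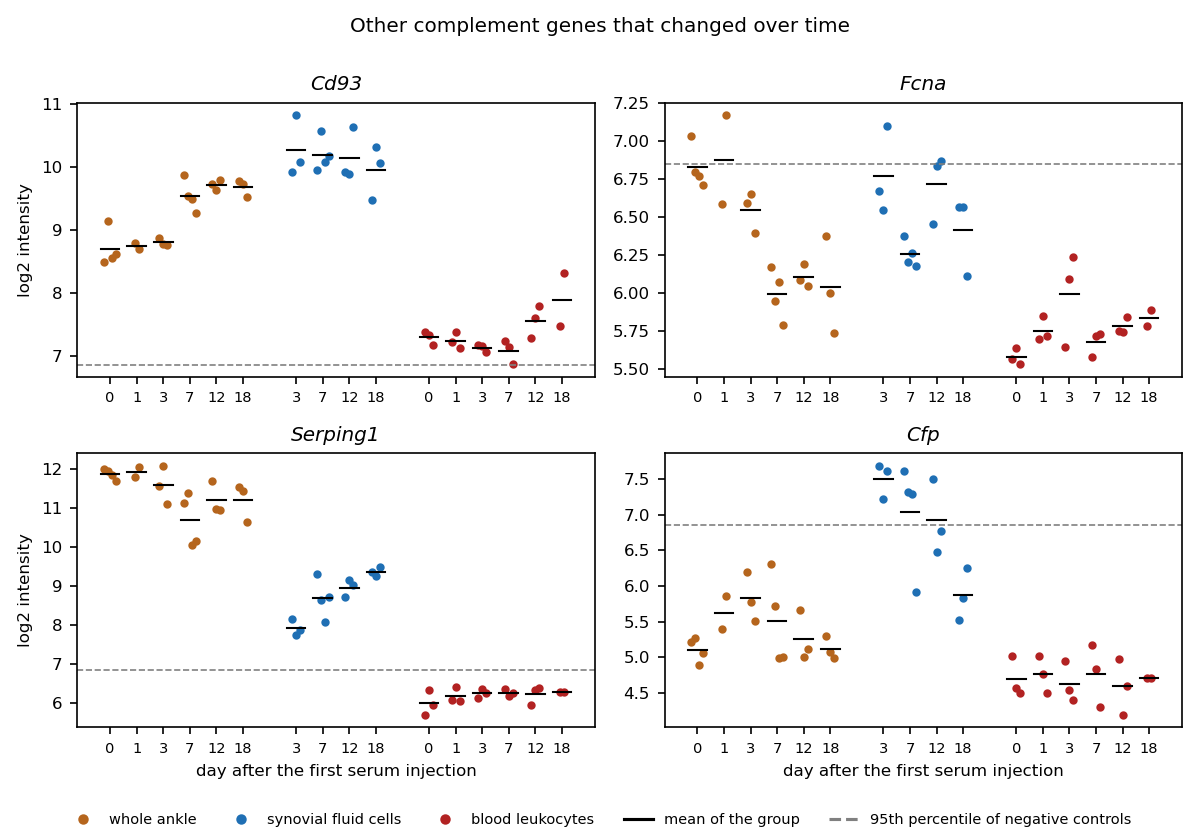
Log2 intensity of 4 other complement genes on each of the 49 arrays (points), by tissue and day, with group means (black) and the limit of 6.85 (dashed), each panel on its own scale. Cd93 rises in ankle from day 7, Fcna falls there, Serping1 is lower in ankle on day 7 and higher in fluid on day 18, and Cfp is lower in fluid on day 18.

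Between tissues the other complement genes split. In fluid against blood 10 of 30 were higher and 13 lower, where 24.8% of all genes were called higher and 58.8% in either direction. Their median was -0.08, the same to 2 decimals as that of all genes. Serping1 was 2.48 ± 0.11 higher (at least 3.68-fold), Cd93 2.73 ± 0.13 higher (6.63-fold) and Cfp 2.16 ± 0.16 higher, with both tissues' averages of Cfp below the limit. Cd55 was 1.61 lower, below the limit on both sides. Limma's adjusted p was no higher than 1.25e-10 for these 4. The other higher genes were Masp1, Fcna, Cfhr2, Cr1l, Itgam, Itgax and Itgb2, the last 3 being chains of complement receptors 3 and 4. Among the lower genes, the calls of C2, Mbl2 and Cfi, at -0.18, -0.17 and -0.17, were each lost when certain single arrays were left out (limma's adjusted p of 0.051 to 0.079).

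In fluid against ankle 6 of 30 were higher, namely Fcna, Cfp, Itgam, Itgax, Itgb2 and Cd93, and 11 were lower, with a median of -0.18. Among all genes 18.7% were called higher and 38.1% in either direction. Itgb2 was 2.77 ± 0.15 higher, or 6.84-fold. Serping1, at -2.44 on the log2 scale, was 5.41-fold lower, and Cd59a, a membrane inhibitor of the terminal complex, stood at -2.13 (at least 2.24-fold lower) and Clu at -1.80 (at least 2.57-fold lower). Limma's adjusted p was no higher than 4.12e-11 for these 4. With the beta-actin covariate 9 of these 17 calls were lost: 2 higher, Fcna and Cd93 (limma's adjusted p = 0.060 and 0.16), and 7 lower, C1ra, Cfhr2, Cfi, Vtn, Cpn1, Cd55 and Cd59b (0.060 to 0.56). The covariate also widened standard errors in this comparison, that of the member C1qa from 0.17 to 0.29. Lost precision and a shift of the difference were not told apart. In ankle against blood on day 0, 9 of 30 were higher, where 22.4% of all genes were called higher and 42.2% in either direction. They were led by Serping1 at 5.88 ± 0.27 (at least 32.4-fold), Cd59a at 2.61 ± 0.27 (at least 3.14-fold) and C2 at 1.69 ± 0.18 below the limit. Cd59b, Cr2, Itgax and Itgb2 were lower, Itgb2 at -2.35 ± 0.27 (at least 4.56-fold). The call of Cd59b, at -0.55, was lost without blood day 0 replicate 2 (-0.33, limma's adjusted p = 0.17). That of C9, among the higher genes at 0.68, was lost without ankle day 0 replicate 1 (0.44, adjusted p = 0.14), blood day 0 replicate 1 (0.072) or blood day 0 replicate 2 (0.059) and with the beta-actin covariate (0.46, adjusted p = 0.18).

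The other probe set of C1qb, 162276_i_at, read 5.14 to 6.17 as a mean in every group, below the limit, and did not show the separation of the main one. The other probe set of Cfb, 100609_at, had group means of 4.46 to 5.07, also below the limit.

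Over the 16 group means, the genes whose pattern was most like that of C1qa were C1qc (r = 0.993), Pltp (0.986) and Pcyt1a (0.985), among 4247 genes with a group mean above the limit. Those most like C1qb were Nrp1 (0.996), Stab1 (0.995) and Ctsl (0.993), and those most like C1qc, after C1qa, were Grn (0.989) and Pltp (0.987). C3ar1 was most like Adgre1 (0.993), which encodes the macrophage marker F4/80, Abcc3 (0.988) and Entpd1 (0.987). These correlations describe 16 means in 3 tissues and rest largely on the tissue differences.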

How the data were processed

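Per the submitters' processing notes, the authors made the deposited intensities with RMA (version not given in the sources used here), a method that subtracts background, gives all arrays one distribution and combines the probes of a set. The values are on a linear scale. The deposited intensity table held 12488 probe sets on 49 arrays. The log2 of each was taken. Of the probe sets, 10833 had 1 gene symbol, 396 several and 1259 were unnamed or controls, and each of 8251 genes was read from its probe set of highest mean. The members and gene lists were chosen with earlier results of these data known.

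Groups come from the labels. Differences were fitted with lmFit and eBayes (trend) of limma 3.58.1 in R 4.3.3, within a tissue for changes over time and on both tissues for comparisons between them, with Benjamini-Hochberg adjustment over all 8251 genes and a threshold of 0.05. The fit was checked on simulated data. A plain fold is given only where both means exceeded the 95th percentile of 34 negative control probe sets. Where only the brighter mean did, the fold is a bound, written as "at least". Correlations used 100000 permutations within days. Other complement genes past the threshold were named by smallest p, at most 4 a comparison, with those against the direction of most. Alternatives changed normalization, filter, probe set rule, array weights, arrays in the fit, eBayes trend and replicate block. Others left out single arrays, the 4 arrays with raised Alb or the 2 fluid arrays of other description, or added a beta-actin 3' to 5' covariate. The main fit did not use replicate numbers. Arrays were also correlated over the deviations of all genes from their group means. On these deviations, same-numbered arrays of different days had median correlations of 0.20 in ankle, -0.06 in fluid and 0.19 in blood. Their lowest were -0.18, -0.31 and -0.45. Arrays of other numbers had medians of -0.11, -0.06 and -0.13. SciPy 1.17.1, pandas 2.3.3 and matplotlib 3.10.9 were used.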

Additional observations from a re-analysis of the deposited data

Results flagged for a closer look

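C1qa on ankle day 0 replicate 1 stood apart from its group, at a log2 intensity of 9.213 against 8.51 to 8.627 on the other 3 arrays, a gap of 0.833 of the range. It is 1 of the 4 arrays with raised Alb. Chance flags about 1 in 20 groups, and 18 groups of values were examined.

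In 5 cases the change in ankle differed from the change in blood by limma's test of the difference itself. All were among the other complement genes. On days 7, 12 and 18 this test called 2.28%, 1.91% and 1.35% of all genes. Fcna stood at -0.9297 on day 7 (adjusted p = 0.0090), -0.9201 on day 12 (0.017) and -1.046 on day 18 (0.014), Cd93 at 1.058 on day 7 (0.012) and Serping1 at -1.459 on day 7 (0.032). The Fcna difference on day 7 kept its call under every alternative run. That on day 12 lost it without blood day 0 replicate 3 or blood day 12 replicate 3 (adjusted p = 0.053 and 0.059), and that on day 18 without ankle day 18 replicate 3 or either blood day 18 array (0.066, 0.065 and 0.10). Cd93 lost it without blood day 7 replicate 3 (0.056) and without the arrays with raised Alb (0.060). Serping1 lost it without any 1 of 9 arrays: ankle day 0 replicates 1 and 3, ankle day 7 replicates 3 and 4, blood day 0 replicates 1 and 3 and the 3 blood arrays of day 7 (adjusted p of 0.051 to 0.12).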

How the results depend on the processing

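All 12 member results past the threshold kept their direction and their call in all 347 alternative values. C1qb fell to 3.39 for fluid minus blood when its 2 probe sets were averaged. Of 1887 alternative values of the other 108 member results, 19 passed the threshold and 156 had another sign. In ankle on day 7, 1 member passed with array weights (C3ar1, limma's adjusted p = 0.0499) and 0 to 1 when single arrays were left out. With the replicate block it was also 1 (C3ar1, limma's adjusted p = 0.038), and the all-gene count was 917 against 555. In their deviations from the group means, same-numbered arrays had median correlations of 0.20 in ankle, -0.06 in fluid and 0.19 in blood. Those of other numbers had -0.11, -0.06 and -0.13. Whether a number marks a shared source was not tested. Array weights gave 2 members in blood on day 3, and 1 each in blood on day 12, in fluid on days 12 and 18 and in the ankle against blood change on day 3. For fluid minus blood they gave 6 members, C5ar1 and Cfb lower, and for fluid minus ankle 5, Cfb lower, while all genes called in blood on day 3 went from 0 to 3948. Without blood day 3 replicate 1 that count was 1101. Among other complement genes the replicate block ended 10 fluid minus blood calls (C2, Masp2, Mbl1, Mbl2, Cfi, C4bp, Clu, Itgam, Itgb2 and C1qbp), 4 fluid minus ankle calls (Fcna, Cfhr2, Cd55 and Cd93), Serping1 in fluid on day 12 and Cd59b in ankle minus blood. C1ra for fluid minus blood reversed, from -0.36 to 0.81 (adjusted p = 1.1e-11), with the mean of all its probe sets. Of 70 calls among other complement genes, 37 held under every alternative run. With genes of low mean left out, 3 to 5 members stayed in the fit. C5ar1 and Cfb stood below background, which limits what can be said of them.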
